A study of Mus musculus with 144 samples.

Results

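The acute phase protein genes are a group of liver genes whose secreted products enter the blood in inflammation. Here they were the 10 genes with the symbols Saa1, Saa2, Saa3, Saa4, Orm1, Orm2, Orm3, Hp, Hpx and Apcs, chosen by symbol from a table of raw counts for 51912 genes, and all 10 were found. The series measured mouse liver by 3′ mRNA sequencing, which reads one end of each polyadenylated transcript, to follow levels and poly(A) site use over the day. It holds 4 series of 36 libraries: wild-type livers gave the total, the nuclear and the polysomal series, and livers labelled Bmal1-/- gave a second series of total RNA. Livers were taken at ZT2, 6, 10, 14, 18 and 22 (zeitgeber time, counted in hours from lights on), with 6 libraries per time and series. Per the labels all mice were male C57BL/6J animals under 12 h light and 12 h dark, fed ad libitum. No age, inflammatory challenge or cell-type restriction of the Bmal1 allele is named there. Nuclear RNA came from nuclei spun through a sucrose cushion, and polysomal RNA from sucrose gradients run with cycloheximide, a drug that holds ribosomes on the message. Whether the replicates are separate animals, and whether equal numbers in different series mark one animal, is not stated, so every p-value measures the spread between these libraries.

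In the liver, hepatocytes make most of these proteins. Interleukin-6, acting through its receptor, the kinases JAK1 and JAK2 and the factor STAT3, and interleukin-1, acting through NF-kB, raise their transcription together with C/EBP factors. SAA1 and SAA2 are the inducible serum amyloid A proteins, which travel with high-density lipoprotein. SAA3 is also made by macrophages and fat cells, and SAA4 is the constitutive member of that family. ORM1, ORM2 and ORM3 are orosomucoids (alpha-1-acid glycoproteins), which bind drugs and lipids in plasma. HP (haptoglobin) binds free haemoglobin, HPX (hemopexin) binds free haem, and APCS (serum amyloid P component) is a pentraxin and a main acute phase protein of the mouse. BMAL1, encoded by the gene whose symbol in the table is Arntl, pairs with CLOCK to drive E-box genes of the circadian clock.

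The Saa and the Orm genes lie in clusters of near copies, and promoters are shown because the levels of most members move together. In the RefSeq annotation of GRCm38.p6, the 4 Saa genes lie within 42.3 kb of chromosome 7: Saa3 at 46711998-46719615, Saa4 at 46727992-46732603, Saa1 at 46740497-46743181 and Saa2 at 46751833-46754313. The 3 Orm genes lie within 21.3 kb of chromosome 4: Orm1 at 63344556-63348163, Orm3 at 63356069-63359506 and Orm2 at 63362449-63365877. Hpx lies on chromosome 7 at 105591611-105600116, Hp on chromosome 8 at 109575128-109579172 and Apcs on chromosome 1 at 172893961-172895054. A RefSeq promoter of 300 bases (250 before the gene start to 50 after it) was found for 8 of the 10 genes, and Orm1 and Hp are named only. The start used by that table is the outer end of the gene interval above for Saa2, Saa4, Orm2, Hpx and Apcs. It lies inside the interval by 201 bases for Saa1, by 89 for Orm3 and by 3939 for Saa3. Capitals mark matches to one of 5 motifs searched on both strands.
Saa1, chr7:46742931-46743230, minus strand: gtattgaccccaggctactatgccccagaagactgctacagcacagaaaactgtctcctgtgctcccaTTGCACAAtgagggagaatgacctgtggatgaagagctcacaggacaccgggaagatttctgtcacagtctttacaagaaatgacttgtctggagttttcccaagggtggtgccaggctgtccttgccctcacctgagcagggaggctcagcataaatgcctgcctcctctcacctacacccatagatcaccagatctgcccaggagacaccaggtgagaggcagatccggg
Saa2, chr7:46751583-46751882, plus strand: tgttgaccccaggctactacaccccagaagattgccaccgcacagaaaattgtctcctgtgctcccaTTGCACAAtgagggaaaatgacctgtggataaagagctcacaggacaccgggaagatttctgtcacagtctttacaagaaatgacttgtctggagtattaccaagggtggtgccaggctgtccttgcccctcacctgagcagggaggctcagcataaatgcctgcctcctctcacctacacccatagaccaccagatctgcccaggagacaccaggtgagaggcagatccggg
Saa3, chr7:46715627-46715926, minus strand: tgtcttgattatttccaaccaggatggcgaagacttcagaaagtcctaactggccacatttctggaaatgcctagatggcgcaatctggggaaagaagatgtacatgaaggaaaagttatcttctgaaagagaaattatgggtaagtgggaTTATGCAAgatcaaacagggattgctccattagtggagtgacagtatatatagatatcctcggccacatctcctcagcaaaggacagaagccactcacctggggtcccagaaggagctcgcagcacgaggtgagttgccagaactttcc
Orm2, chr4:63362199-63362498, plus strand: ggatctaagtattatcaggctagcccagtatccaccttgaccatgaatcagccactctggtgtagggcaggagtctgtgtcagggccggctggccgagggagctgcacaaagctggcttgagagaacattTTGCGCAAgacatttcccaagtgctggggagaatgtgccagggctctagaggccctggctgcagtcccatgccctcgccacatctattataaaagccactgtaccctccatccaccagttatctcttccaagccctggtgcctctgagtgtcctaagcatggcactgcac
Orm3, chr4:63355908-63356207, plus strand: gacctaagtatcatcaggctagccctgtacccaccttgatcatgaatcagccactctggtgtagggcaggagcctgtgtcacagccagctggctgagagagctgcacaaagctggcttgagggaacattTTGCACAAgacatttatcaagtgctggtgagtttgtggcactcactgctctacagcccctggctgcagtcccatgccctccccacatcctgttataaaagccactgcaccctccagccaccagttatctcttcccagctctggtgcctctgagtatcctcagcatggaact
Apcs, chr1:172895005-172895304, minus strand: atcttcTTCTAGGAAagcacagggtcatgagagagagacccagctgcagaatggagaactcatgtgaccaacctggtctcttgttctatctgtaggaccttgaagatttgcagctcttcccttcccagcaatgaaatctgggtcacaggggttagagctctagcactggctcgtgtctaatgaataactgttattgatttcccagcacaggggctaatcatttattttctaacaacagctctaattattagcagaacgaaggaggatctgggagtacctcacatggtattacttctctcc
The promoters of Saa1 and Saa2 were 95.3% identical in a global alignment and those of Orm2 and Orm3 86.2%. The other pairs of the 8 promoters were at most 50.9% identical (Saa1 and Saa3). The C/EBP motif TTGCNNAA occurred in 7 of the 8 promoters, against 10.8% of the 32851 RefSeq promoters of that length. Counted from the start the table uses, it began at position -182 in Saa1, -183 in Saa2, -120 in Orm2, -121 in Orm3, -200 in Hpx, and at -245 and -52 in Saa4. In Saa3 it matched on the opposite strand at -99, in the same 8 letters as the D-box TTATGNAA, a motif of clock-controlled PAR-domain factors found in 3.38% of promoters. The STAT motif TTCNNNGAA (8.30% of promoters) occurred only in Apcs among the 8, at -244. The NF-kB motif (GGG and TTCC with 3 free bases between them, 5.56%) and the E-box CACGTG (7.15%) had no match in the 8 windows. A match describes letters and not a bound site. How the authors' counting treated reads that fit more than 1 copy is not given in the sources used here, so the split of counts between Saa1 and Saa2, and among Orm1, Orm2 and Orm3, is uncertain.

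Library depth in gene counts was 5316601 to 9831142 for wild-type total, 1662449 to 6620128 for nuclear, 2578048 to 13068044 for polysomal and 4379549 to 14281894 for Bmal1-/- RNA. The hepatocyte markers Alb, Ttr, Apoa1, Cps1, Serpina1a, Cyp2e1 and Tat were all counted in each series, with a summed median of 70999 CPM (counts scaled to a common library total) in the wild type and 57280 CPM in Bmal1-/- RNA. Arntl had 6.73 CPM ± 5.40 (SD, n = 36) in the wild type and 11.5 CPM ± 2.98 in libraries labelled Bmal1-/-. The labels do not name the altered part of the gene, so the level of counts at its 3′ end does not check the genotype. Its wild-type time means ran from 0.852 CPM at ZT10 to 12.6 CPM at ZT22 (24 h rhythm, adjusted p 1.56e-08 by edgeR). The Bmal1-/- time means ran from 9.16 to 13.1 CPM (adjusted p 0.9999), and the rhythm differed between the genotypes (adjusted p 1.64e-10). Although all mice are labelled male, 1 library per series had more than 100 CPM of Xist, an RNA of the inactive X chromosome of females: ZT22 replicate 5 of total and of nuclear RNA, ZT22 replicate 1 of polysomal RNA and ZT22 replicate 6 of Bmal1-/- RNA. Libraries numbered 1 to 3 and 4 to 6 also differed. The summed median of 9 neutrophil markers was 20.4 CPM in wild-type total replicates 1 to 3 and 2.10 CPM in 4 to 6, and in polysomal RNA 2.48 and 22.8 CPM in that order. The polysomal sets thus lay the other way round from those of total RNA, and the Xist library there carries another number. The labels do not tell whether a polysomal number marks the same liver as that number in total or nuclear RNA, so values that compare polysomal and total libraries by number may set different livers side by side. Values within each set of numbers are given beside the pooled ones for results they change most.

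The haem and haemoglobin carriers were the most abundant of the group in wild-type total RNA, and the inducible Saa genes were the most variable. One read is counted per transcript end, so CPM was not divided by gene length. Hpx had 2217 CPM ± 691 (SD, n = 36), with a lowest library of 1155, a median of 2102 and a highest of 3701 CPM, and its median ranked 52nd of all genes. Hp had 1209 CPM ± 603 (281, 1023 and 3246 CPM). Orm1, the most abundant orosomucoid, had 731 CPM ± 235 (361, 696 and 1323 CPM). These 3 genes differed by a factor of 3.20 (Hpx), 11.6 (Hp) and 3.67 (Orm1) between their highest and lowest libraries, and the ranges of neighbours in this order overlapped. Saa4 had 235 CPM ± 110 (59.6, 219 and 565 CPM). Saa1 had 186 CPM ± 291 (15.6, 74.6 and 1397 CPM), and Orm2 had 123 CPM ± 64.9 (47.4, 108 and 338 CPM). The SD of Saa1 exceeded its mean, and its median lay below that of Orm2. Saa2 had 72.7 CPM ± 139 (5.45, 25.9 and 745 CPM), and Apcs had 69.8 CPM ± 25.3 (35.9, 68.1 and 143 CPM). Saa3 had 20.1 CPM ± 9.77 (4.995, 19.7 and 43.4 CPM), and Orm3 had 12.7 CPM ± 12.4 (2.35, 6.90 and 47.6 CPM). The order of the medians from Hpx to Orm3 thus spans genes from the 52nd to the 7642nd rank, and Saa1 to Orm3 overlap in range.

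**Figure D1:**
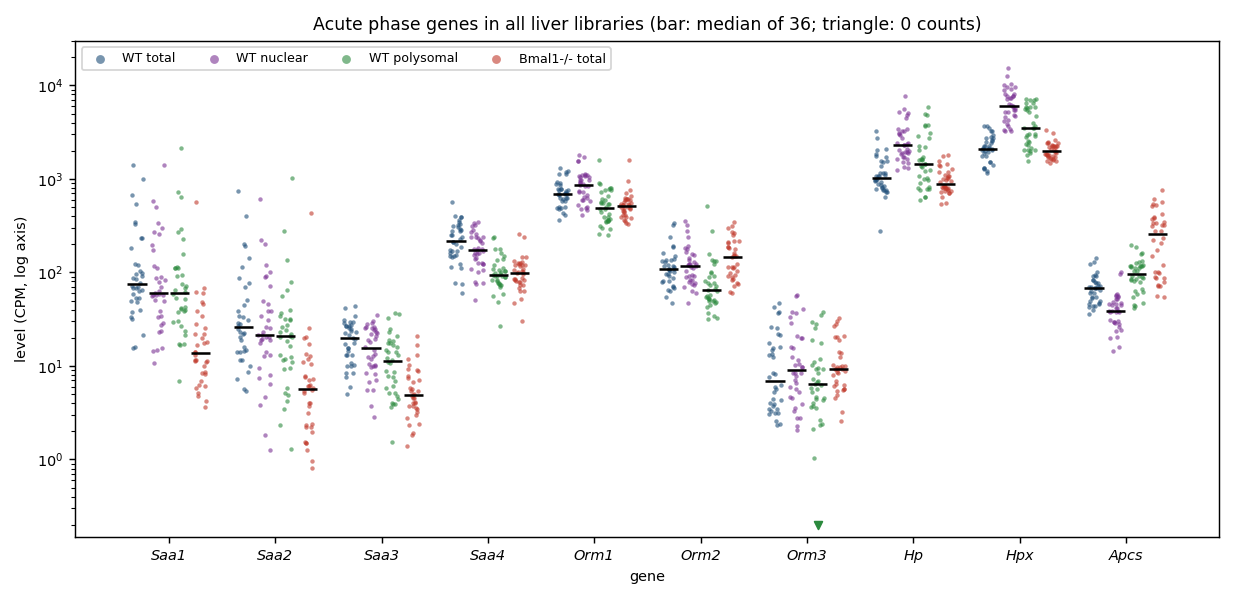
Level of each of the 10 genes in every library, in CPM on a log axis, by series; each point is 1 library and the bar is the median of 36. Saa1 and Saa2 spread over the widest range in every series, and Apcs reaches 756 CPM in Bmal1-/- RNA against at most 143 CPM in wild-type total RNA.

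A few wild-type livers carried most of the Saa1 and Saa2 transcripts, at several times of day. At ZT6 the 6 wild-type total libraries had 1397, 342, 545, 121, 52.9 and 62.8 CPM of Saa1 (replicates 1 to 6). At ZT22 they had 31.8, 96.6, 1001, 48.0, 39.9 and 330 CPM, and at ZT14 671, 68.4, 233, 21.7, 122 and 104 CPM. At ZT2 the values lay between 15.8 and 85.9 CPM. High libraries therefore stood next to low ones of the same time, with a ratio of 89.6 between the highest (ZT6 replicate 1) and the lowest (ZT18 replicate 5) of the series. About the mean of each time, the SD of Saa1 on the log2(CPM + 0.5) scale was 1.47, and that of Saa2 was 1.55, which are the 99.8 percentiles of the 11964 genes tested (median of all genes 0.348). Orm3 had an SD of 1.31 (99.6 percentile), while Apcs with 0.38 was at the 58.0 percentile. The Bmal1-/- SD of Saa1 was 1.33 and that of Saa2 was 1.39, and Apcs joined them with 1.20 (99.0 percentile), while Hpx had only 0.27 (25.1 percentile).

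The spread was shared by most of the group. Across the 36 wild-type total libraries, with time means removed, Saa1 went with Saa2 at Pearson r = 0.938 (Spearman rho 0.910), with Orm2 at 0.896 (0.892) and with Hp at 0.806 (0.818), each with an adjusted permutation p of 2.40e-05 over 36 relations, the smallest that 100000 permutations can give. Without the 2 libraries farthest from the median of Saa1, r was 0.918, 0.854 and 0.796. Saa1 also went with Saa4 (0.796), Orm1 (0.782), Orm3 (0.678) and Hpx (0.608), so that 7 of 9 relations passed. The share of all genes that pass this test with Saa1 was not counted, so the counts here do not show a trait particular to the group. The relation with Apcs (r = 0.3003, adjusted permutation p 0.113) and that with Saa3 (r = 0.257, adjusted permutation p 0.177) did not. Within wild-type replicates 1 to 3 the relations that passed numbered 7 of 9, with Apcs among them (r = 0.673, adjusted permutation p 0.0164) and without Orm3. Within 4 to 6 they numbered 6 of 9, and Apcs gave 0.352 (adjusted permutation p 0.417). For Saa3 the r was 0.405 within 1 to 3 (adjusted permutation p 0.146) and 0.827 within 4 to 6 (adjusted permutation p 0.00164). Orm3 gave 0.591 and 0.270 within the sets, with adjusted permutation p of 0.0923 and 0.479, so it missed the threshold in both, over 18 libraries each. In nuclear RNA 8 of 9 relations of Saa1 passed and in polysomal RNA 9 of 9. The Bmal1-/- libraries had 5 of 9 that passed (Saa2 0.934, Saa4 0.600, Orm2 0.594, Saa3 0.550 and Hp 0.419), and within their sets 2 and 2. Over all 45 pairs of the 10 genes the median r was 0.566 in wild-type total, 0.539 in nuclear, 0.635 in polysomal and 0.290 in Bmal1-/- RNA; whether these medians differ was not tested.

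Genes outside the group were ranked by the same r with Saa1, Orm2, Hp and Apcs among 7963 genes of wild-type total RNA, as a description. Lcn2, which encodes the acute phase protein lipocalin 2, came 1st for Saa1 (r = 0.886) and for Hp (0.904) and the third for Orm2 (0.815). With Saa1 it kept an r of 0.880 in nuclear, 0.871 in polysomal and 0.692 in Bmal1-/- RNA. The next for Saa1 were Gm11212 (0.844), Fcna (0.797), a ficolin made by macrophages, Slc41a2 (0.795) and Lrg1 (0.783), a leucine-rich glycoprotein of plasma. For Hp they were Fcna (0.856), Ccl6 (0.846), Tmem176a (0.833) and C4b (0.830). The list for Apcs shared none of these genes: Itih4, an inhibitor heavy chain of plasma, led it at 0.724, followed by Pml (0.700), Flna (0.671), Rras2 (0.654) and Stab2 (0.654). In the mutant the r of Apcs was 0.604 with Itih4 and -0.08 with Pml.

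Nuclear libraries carried the Saa1 pattern of the total library with their number and time. At ZT6 the nuclear libraries had 496, 296, 582, 33.2, 49.5 and 56.9 CPM of Saa1, and at ZT22 38.8, 79.1, 1418, 23.2, 28.6 and 268 CPM (replicates 1 to 6). The high nuclear libraries at these times, replicates 1 to 3 at ZT6 and 3 and 6 at ZT22, are those that were high in total RNA. Over the 36 same-numbered pairs, with time means removed, r was 0.920 for Saa1 (rho 0.921, adjusted permutation p 3.33e-05 over 20 relations; 0.905 without the 2 farthest), 0.905 for Saa2 and 0.885 for Orm3. The lowest were 0.582 for Apcs and 0.567 for Hpx, and 10 of 10 passed. How many of all genes pass this test was not counted either. Within replicates 1 to 3 the r ran from 0.676 to 0.901 with 9 of 10 passing, and within 4 to 6 from 0.570 to 0.894 with 6 of 10. Same-numbered polysomal and total libraries gave r between -0.514 and -0.144. Of these 5 of 10 passed over all numbers, 0 of 10 within replicates 1 to 3 and 0 of 10 within 4 to 6, so that no call was left within the sets. As said of the sets above, a shared number may not mark a shared liver here. The mean of Saa1 was 295 CPM in total RNA replicates 1 to 3 and 76.0 CPM in 4 to 6, whereas in polysomal RNA it was 60.1 and 274 CPM.

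**Figure D2:**
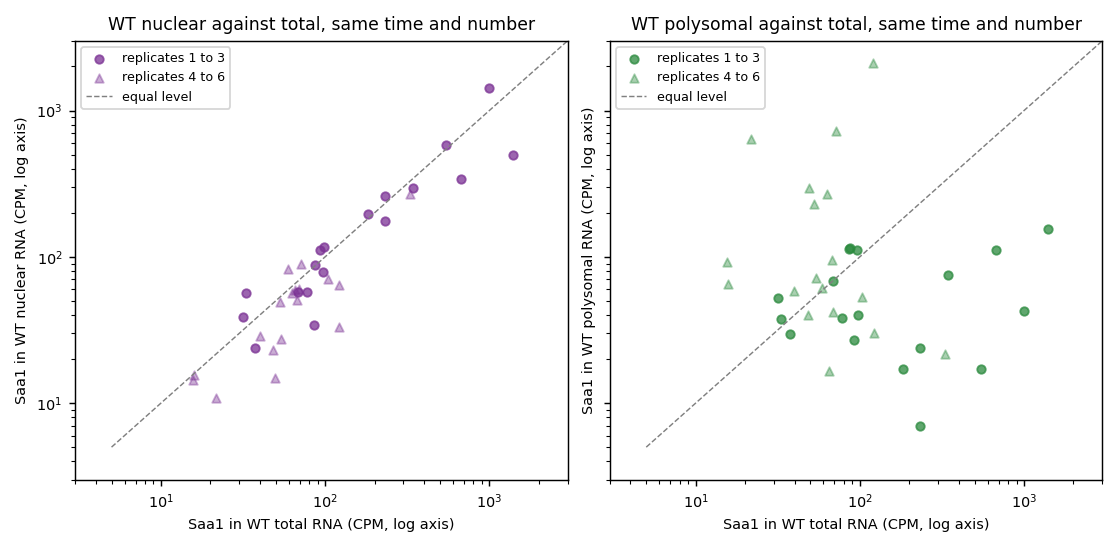
Saa1 in total RNA (horizontal, CPM, log axis) against nuclear or polysomal RNA (vertical, CPM, log axis) of the same number and time in the wild type. Each point is 1 pair, with circles for replicates 1 to 3 and triangles for 4 to 6. The nuclear points follow the diagonal (r = 0.920 about time means), and the polysomal points do not.

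The genotypes were compared to ask which of these transcripts depend on the clock gene. All 4 Saa genes were lower in Bmal1-/- liver, Saa1 by a factor of 6.44 and Saa2 by 6.07, and Apcs was higher by a factor of 3.63. Of the 10 genes 8 differed by edgeR's quasi-likelihood test with Benjamini-Hochberg adjustment over all genes at 0.05 (1 higher, 7 lower). Of all 12082 genes tested, 44.2% differed (21.7% higher and 22.4% lower). The median log2 change was -0.44 over the 10 genes and -0.00 over all genes tested. In bulk liver, fewer cells of a type and less RNA per cell cannot be told apart.

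Saa1 had a lowest library of 3.64, a median of 13.7 and a highest of 567 CPM in Bmal1-/- RNA, against 15.6, 74.6 and 1397 CPM in wild-type total RNA. The Bmal1-/- median was lower at 6 of 6 times, and at 2 of them all 6 Bmal1-/- libraries lay below all 6 wild-type ones. By edgeR this was a log2 change of -2.69 (SE 0.36, adjusted p 6.34e-09). One Bmal1-/- library stood apart: at ZT2 the values were 59.8, 18.1, 16.9, 567, 11.02 and 46.3 CPM (replicates 1 to 6). Without the library with the highest Saa1 in each series the log2 change was -2.85, and within replicates 1 to 3 and 4 to 6 it was -3.20 and -2.07. Saa2 changed by -2.60 (SE 0.39, adjusted p 1.18e-07), with 0.809, 5.68 and 429 CPM as its lowest, median and highest Bmal1-/- libraries. Its change was -3.36 within replicates 1 to 3 and -1.64 within 4 to 6. Saa3 fell from 20.1 CPM ± 9.77 to 6.13 CPM ± 4.23 (SD, n = 36), a log2 change of -1.83 (SE 0.20, adjusted p 2.77e-11), with -1.28 and -2.42 within the 2 sets. Saa4, the constitutive member, fell from 235 CPM ± 110 to 104 CPM ± 44.9, a log2 change of -1.22 (SE 0.15, adjusted p 2.39e-10). At ZT2 the mean went the other way for Saa1 (120 CPM in Bmal1-/- against 57.2 in wild-type RNA) and Saa2 (81.0 against 19.9 CPM), where replicate 4 stood apart. For all 4 genes the Bmal1-/- median was lower at 6 of 6 times and all Bmal1-/- libraries lay below all wild-type ones at 2. How many of all genes lie apart in this way was not counted. Each of the 4 was called in 17 of 17 alternative settings.

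Markers of other cell types were counted in the same comparison. Against 22.4% of all genes lower and 21.7% higher, 9 of 10 Kupffer cell and macrophage markers were lower in Bmal1-/- RNA and 0 higher (median log2 change -0.60), with a summed level of 210 to 1169 CPM in wild-type and 151 to 626 CPM in Bmal1-/- libraries. Of 9 neutrophil markers 2 had enough counts to test and 1 was lower; their sum ran from 1.20 to 72.05 CPM and from 1.22 to 31.5 CPM, and Mpo was at 0 in all 36 Bmal1-/- libraries. Red blood cell markers were lower in 4 of 5, and both cholangiocyte markers tested were higher. Of 7 hepatocyte markers 2 were higher and 2 lower. Sinusoidal endothelial markers were lower in 3 and higher in 1 of 7, stellate cell markers lower in 3 and higher in 2 of 6, and the 1 lymphocyte and 1 adipocyte marker tested were lower. The part of these markers in the fall of the Saa genes was not tested.

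The orosomucoids did not move as a block. Orm1 fell from 731 CPM ± 235 to 549 CPM ± 220 (SD, n = 36), a log2 change of -0.52 (SE 0.10, adjusted p 1.17e-05 by edgeR), and its median was lower at 6 of 6 times. At ZT2 its mean was higher in Bmal1-/- RNA (758 against 594 CPM). Orm2 had 157 CPM ± 76.7 in Bmal1-/- against 123 CPM ± 64.9 in wild-type RNA (log2 change 0.28, SE 0.15, adjusted p 0.113). Orm3 had 11.7 CPM ± 7.86 against 12.7 CPM ± 12.4 (-0.19, SE 0.27, adjusted p 0.607). Behind this pooled value of Orm3 lie 2 opposite ones: its log2 change was -0.997 (adjusted p 0.0171) within replicates 1 to 3 and 1.15 (adjusted p 4.39e-04) within 4 to 6. The wild-type mean of Orm3 was 20.3 CPM in replicates 1 to 3 and 5.06 CPM in 4 to 6, and the Bmal1-/- means were 10.7 and 12.8 CPM, so the sets lay further apart in the wild type. The neutrophil marker sum moves between the same wild-type sets, as given above, and its part was not tested.

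Haptoglobin and hemopexin, the carriers that clear haemoglobin and haem, were slightly lower. Hp had 990 CPM ± 318 against 1209 CPM ± 603 (log2 change -0.35, SE 0.12, adjusted p 0.0154 by edgeR), and Hpx had 2047 CPM ± 414 against 2217 CPM ± 691 (-0.20, SE 0.08, adjusted p 0.0470). At 0 of 6 times did all libraries of one genotype lie apart from all of the other, and the calls were kept in 12 of 17 alternative settings for Hp and 6 of 17 for Hpx. The change was -0.52 to -0.18 over them for Hp and -0.29 to -0.05 for Hpx. Without the libraries with Xist above 100 CPM the adjusted p of Hpx was 0.102. Of 9 other genes of haem and haemoglobin clearance or its cargo, 4 fell and 0 rose. Of all genes 44.2% differed, with 22.4% lower and 21.7% higher. The 4 were the globin genes Hbb-bt (-1.04), Hbb-bs (-1.02) and Hba-a2 (-0.98) and the biliverdin reductase Blvrb (-0.50).

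Apcs went the other way and was split by replicate number. Its wild-type total libraries had a lowest value of 35.9, a median of 68.1 and a highest of 143 CPM, and the Bmal1-/- libraries 53.9, 256 and 756 CPM. Apcs thus rose by 1.86 on the log2 scale (SE 0.20, adjusted p 9.59e-12, edgeR). Its Bmal1-/- mean and median were higher at 6 of 6 times. Bmal1-/- libraries numbered 1 and 2 had 53.9 to 150 CPM over the 6 times, and 1 of 12 exceeded the highest wild-type library. Those numbered 3 and 4 had 175 to 522 CPM and 12 of 12 exceeded it. Numbers 5 and 6 had 89.6 to 756 CPM, with 10 of 12 above it and the lowest values, 101 and 89.6 CPM, both at ZT14. The change was 0.40 (adjusted p 0.0297) within replicates 1 and 2 and 2.21 within 3 to 6; this division was chosen after the values were seen.

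**Figure D3:**
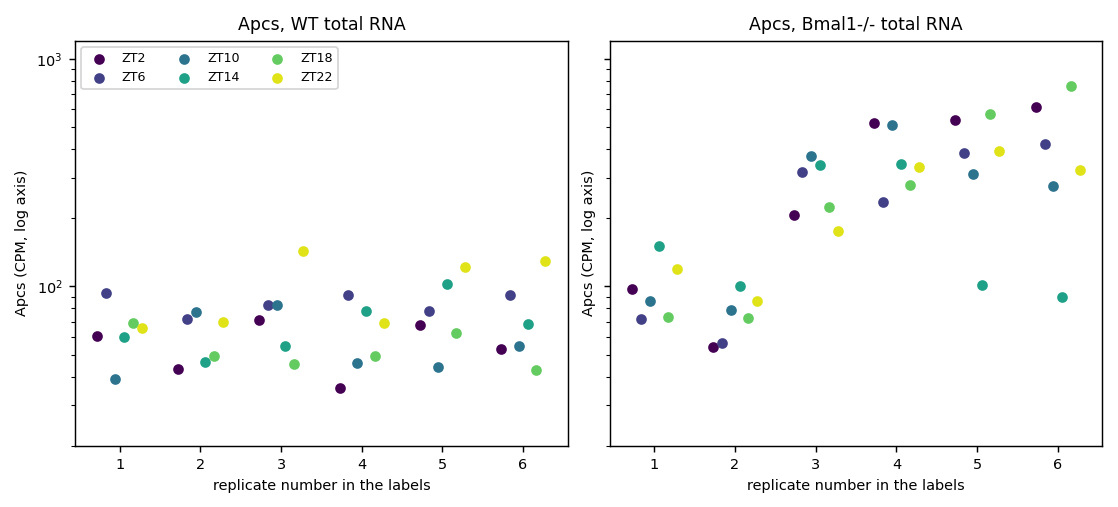
Apcs in each total RNA library (CPM, log axis) by replicate number, for wild-type and Bmal1-/- liver; each point is 1 time of day. Bmal1-/- libraries numbered 3 and 4 all lie above 174 CPM, those numbered 1 and 2 between 53.9 and 150 CPM, and wild-type libraries between 35.9 and 143 CPM.

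The chromosomal surroundings of Apcs were described for the same libraries. Within 2 Mb of Apcs 49 other genes were tested, of which 6 were higher and 21 lower in Bmal1-/- RNA. Their median log2 change was -0.15. Of all genes tested, 21.7% were higher and 22.4% lower. Only Fmn2 (3.02) had a larger rise than Apcs, and Pcp4l1 changed by 1.76. Crp, the neighbouring pentraxin gene, was not called (-0.07, adjusted p 0.418). Ifi202b, an interferon-inducible gene at 173962569-173982844, 1.07 Mb away, was picked after its counts were seen. It had a count in 22 of 36 Bmal1-/- libraries (366 counts in all) and in 2 of 36 wild-type total libraries (2 counts). By replicate number the Bmal1-/- libraries with a count were 1, 0, 6, 6, 5 and 4 of 6. The 2 low Apcs libraries at ZT14, replicates 5 and 6, had 0 counts of it, but so did ZT2 replicate 6, where Apcs was at 615 CPM. The part of the surrounding region in the rise of Apcs was not tested.

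**Figure D4:**
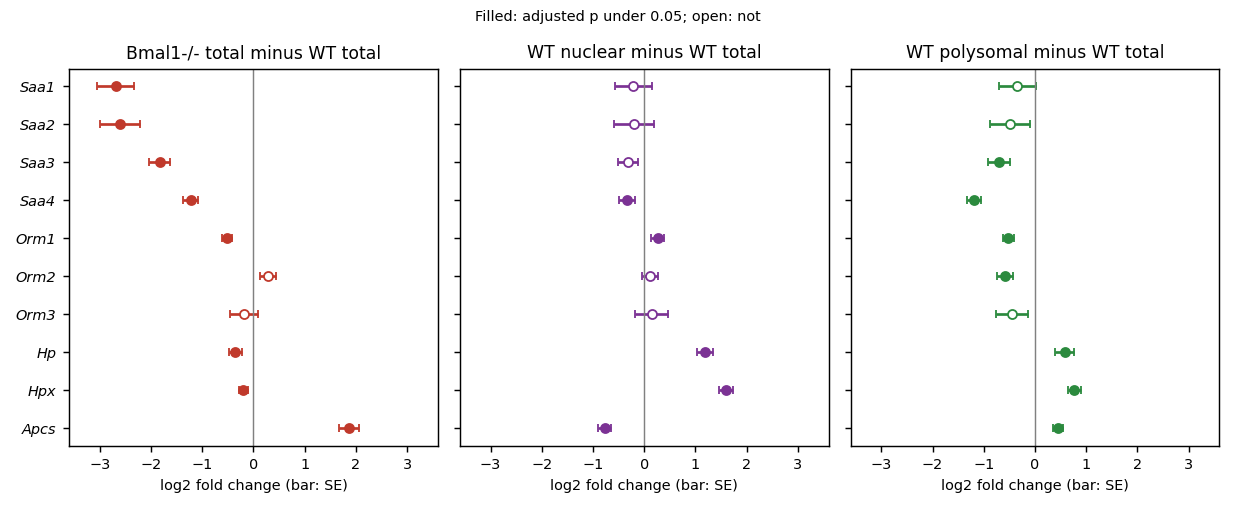
The edgeR log2 change of each gene with its SE in 3 comparisons with wild-type total RNA (Bmal1-/- total, nuclear and polysomal RNA); filled points passed an adjusted p of 0.05. Saa1 lies at -2.69 and Apcs at 1.86 in Bmal1-/- RNA, and Hpx lies at 1.59 in nuclear RNA.

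Other acute phase genes did not follow the Saa genes in Bmal1-/- liver. Of 27 tested that rise in inflammation, 14 were higher and 2 lower, with a median log2 change of 0.28. Those with the largest changes were Serpina1e (-2.07), Itih3 (1.42), the metallothioneins Mt1 (1.23) and Mt2 (1.15), the copper carrier Cp (0.998) and complement C3 (0.77). The other lower gene was Il1rn (-0.55), the interleukin-1 receptor antagonist. Of 12 negative acute phase genes, whose products fall in inflammation, 5 were higher and 5 lower (median -0.01), among them Mup20 (-1.12), Serpina6 (-0.88), Alb (-0.56) and Ahsg (0.42). Of 25 receptors, signal carriers and factors, 2 were higher and 10 lower (median -0.14). The 2 were the interleukin-1 receptor Il1r1 (0.63) and Stat3 (0.31), and the lower ones included Creb3l3 (-0.50), Cebpa (-0.45), Cebpb (-0.45) and Il6st (-0.39), the shared receptor chain of the interleukin-6 family. These counts are read against 44.2% of all genes that differed, with 21.7% higher and 22.4% lower.

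Nuclear and total RNA of the wild type were compared to see where transcripts sit. Hpx and Hp were enriched in nuclear RNA, Apcs was depleted, and Saa1 and Saa2 were not called in the fit that takes libraries as unpaired. With a block by number and time 9 of the 10 genes were called, Saa1 and Saa2 among them, as given below. No share of all genes is given for that fit, so its count does not show a trait particular to the group. In the unpaired fit 5 of the 10 genes differed by edgeR (3 higher, 2 lower), against 83.8% of the 11864 genes tested (41.6% higher, 42.1% lower). Hpx had a lowest nuclear library of 3274, a median of 6075 and a highest of 15389 CPM, against 1155, 2102 and 3701 CPM in total RNA. At 5 of 6 times all 6 nuclear libraries lay above all 6 total ones, and the share of all genes that do so was not counted. The log2 change was 1.59 (SE 0.13, adjusted p 6.58e-18), a 3.01-fold higher share. Hp rose by 1.19 (SE 0.16, adjusted p 5.46e-10), from 1209 CPM ± 603 to 2750 CPM ± 1447 (SD, n = 36). Apcs fell from 69.8 CPM ± 25.3 to 41.4 CPM ± 18.4 (log2 change -0.77, SE 0.12, adjusted p 1.47e-08). Orm1 (0.26, adjusted p 0.0417) and Saa4 (-0.33, adjusted p 0.0496) lay near the threshold and were called in 9 and 7 of 16 alternative settings. Without the libraries with Xist above 100 CPM the adjusted p of Saa4 was 0.0619. The others had log2 changes of -0.32 (Saa3, SE 0.19), -0.21 (Saa1, SE 0.37), -0.19 (Saa2, SE 0.39), 0.15 (Orm3, SE 0.32) and 0.11 (Orm2, SE 0.15). Both fractions were scaled to their own library totals, so these are shares of each fraction and not amounts per cell.

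Polysomal RNA, the fraction on several ribosomes, was compared with total RNA in the same way. Hpx, Hp and Apcs had higher shares there and Saa4, Saa3, Orm2 and Orm1 lower ones, so that 7 of 10 genes differed by edgeR (3 higher, 4 lower) against 76.1% of the 11556 genes tested (38.4% higher, 37.6% lower). Saa4 fell from 235 CPM ± 110 to 105 CPM ± 46.2 (SD, n = 36), a log2 change of -1.19 (SE 0.14, adjusted p 1.61e-11), and was lower in mean at 6 of 6 times. Saa3 had a log2 change of -0.71 (SE 0.21, adjusted p 0.00224), Orm2 one of -0.58 (SE 0.16, adjusted p 0.00117) and Orm1 one of -0.52 (SE 0.11, adjusted p 2.80e-05). Hpx rose by 0.77 (SE 0.13, adjusted p 1.96e-07), Hp by 0.58 (SE 0.18, adjusted p 0.00290) and Apcs by 0.45 (SE 0.10, adjusted p 3.30e-05). The call of Hp was lost without replicate 4 (0.26, adjusted p 0.182) and that of Saa3 without replicate 6 (-0.38, adjusted p 0.121). The 2 sets of numbers disagreed for the genes with the widest spread, and each set may compare different livers, as said above. The log2 change of Saa1 was -1.90 within replicates 1 to 3 and 1.04 within 4 to 6, against a pooled value of -0.35 (SE 0.36, adjusted p 0.387) and -1.15 (adjusted p 0.00287) without replicate 4. That of Saa2 was -2.57 and 1.43 (pooled -0.49, adjusted p 0.253, and -1.35 with an adjusted p of 0.00127 without replicate 4), and that of Orm3 was -2.19 and 1.38 (pooled -0.44, adjusted p 0.192, and -0.96 with an adjusted p of 0.00660 without replicate 4). Among the called genes Hp had -0.23 and 1.22 within the sets, Saa3 -0.03 and -1.47, and Orm2 -0.99 and -0.32. Hpx (0.75 and 0.75), Apcs (0.30 and 0.52), Saa4 (-1.55 and -0.86) and Orm1 (-0.56 and -0.54) had the same direction in both sets. Red blood cell markers were higher in polysomal RNA in 4 of 5, with a summed median of 8852 CPM against 2585 CPM in total RNA. Exocrine pancreas markers, at most 2.89 CPM in total RNA, summed to as much as 2505 CPM in a polysomal library. Their part in these values was not tested.

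Time of day was tested with a 24 h curve in each series (edgeR, 2 degrees of freedom). Saa4 was the only one of the 10 genes with a called rhythm in wild-type total RNA, where 18.9% of 11964 genes were rhythmic. Its 6 libraries per time averaged 137 CPM ± 42.8 (SD) at ZT2, 215 ± 58.1 at ZT6, 241 ± 52.2 at ZT10, 341 ± 163 at ZT14, 273 ± 109 at ZT18 and 204 ± 99.9 at ZT22. The time means thus rose through the light phase to early dark and fell again, with wide overlap at ZT14, where the lowest library had 59.6 and the highest 565 CPM. The fitted curve peaked at ZT14.5, at 2.09 times its trough (adjusted p 0.0185). The call was lost without replicate 1 (adjusted p 0.0967), 2 (0.0849) or 6 (0.0595) and within replicates 4 to 6 (0.399). The Bmal1-/- time means of Saa4 lay between 93.7 and 115 CPM, and its fitted ratio was 1.27 (adjusted p 0.9999, unadjusted 0.456, edgeR). The difference in rhythm between the genotypes had an adjusted p of 0.0631 (unadjusted 0.00374) by edgeR and was not called. It was 0.0265 with DESeq2, and edgeR with a replicate block called the difference as well, as given below. Rhythm differed between the genotypes in 5.11% of all genes and in 0 of the 10 by edgeR without a block, with 1 at an unadjusted p under 0.05 and 1 by DESeq2, which is Saa4.

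**Figure D5:**
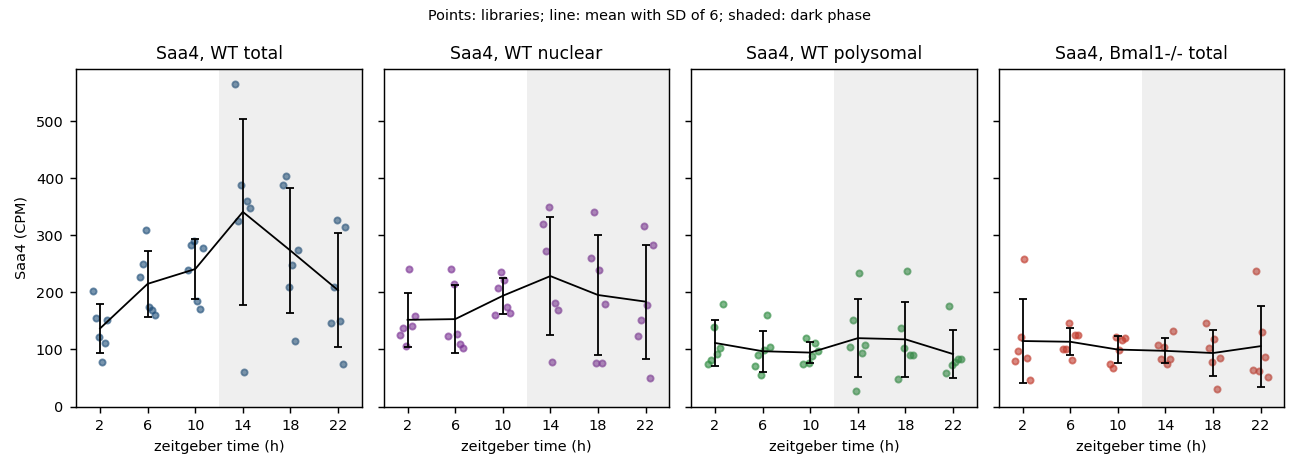
Saa4 (CPM) over zeitgeber time (h) in wild-type total, nuclear and polysomal RNA and in Bmal1-/- total RNA. Points are libraries, lines join the means of 6, and bars are the SD. The means of wild-type total RNA go from 137 CPM at ZT2 to 341 CPM at ZT14, and the Bmal1-/- means stay between 93.7 and 115 CPM.

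In the other series 0 of the 10 genes had a called rhythm by edgeR, against 5.99% of all genes in nuclear, 7.9% in polysomal and 0.00825% in Bmal1-/- RNA. On simulated data these tests recovered 24 of 99 planted 2-fold rhythms for nuclear, 18 of 100 for polysomal and 21 of 100 for Bmal1-/- RNA. Of planted 2-fold differences in rhythm 6 to 11 of 100 were recovered. The simulation gave every gene the same spread beyond counting error, so these rates are not those of single members. On the log2(CPM + 0.5) scale the SD was 1.81 for Saa2 in nuclear and 0.27 for Hpx in Bmal1-/- RNA. A gene that was not called may thus still be rhythmic. At an unadjusted p under 0.05 there were 0 of 10 in nuclear, 2 in polysomal (Saa1 and Saa2) and 2 in Bmal1-/- RNA (the same 2 symbols), and DESeq2 called 0, 1 (Saa2 in polysomal RNA) and 0. Saa2 in polysomal RNA had a fitted ratio of 6.44 with a peak at ZT5.83 (adjusted p 0.0776), and its single highest library, ZT6 replicate 4, had 1013 CPM. In Bmal1-/- RNA the fitted ratio of Saa2 was 8.85 with a peak at ZT1.95, and ZT2 replicate 4 alone had 429 CPM against a next highest of 20.6 CPM at that time. A difference in rhythm from the total series was called by edgeR for 0% of genes in the nuclear and in the polysomal series, and 0 of the 10 had an unadjusted p under 0.05 in either comparison or were called by DESeq2. Among related genes of wild-type total RNA, 7 of 26 other acute phase genes were rhythmic, against 18.9% of all genes. The 6 with the largest ratios did not share 1 peak time, though the fibrinogen chains among them peaked close together. Il1rn had a ratio of 2.63 with a peak at ZT5.15, Serpina3m 1.83 at ZT18.1 and Tnfrsf1b 1.498 at ZT9.39. Crp had 1.494 at ZT20.1, and the fibrinogen chains Fga and Fgg had 1.56 at ZT2.26 and 1.47 at ZT2.78. Of 25 signalling genes 6 were rhythmic, read against the same share, among them the interleukin-6 receptor Il6ra, with a ratio of 2.23 and a peak at ZT14.3, and Cebpd, with 1.89 at ZT13.0. Of the negative acute phase genes 0 of 12 and of the haem genes 0 of 9 were called.

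Poly(A) site use is the share of a gene's site counts at each site of the authors' filtered list. Saa1, Saa2, Hp and Hpx had 1 site each. Saa3 used 2 neighbouring sites at its end, and the more distal one, chr7:46711995-46712021 on the minus strand, held 8.596% ± 7.11 (SD, n = 36) of its counts in wild-type total RNA, 30.4% ± 15.9 in nuclear and 27.9% ± 15.2 in polysomal RNA. By edgeR its usage rose by 1.78 in nuclear (SE 0.18, adjusted p 5.62e-14) and by 1.72 in polysomal RNA (SE 0.18, adjusted p 9.20e-13) on the log2 scale. The Bmal1-/- share was 7.03% ± 6.56 (adjusted p 0.599). Orm3 had 3 sites, and the most 3′ one, chr4:63359464-63359515 on the plus strand, held 52.6% ± 17.97 in total RNA, 77.3% ± 14.2 in nuclear and 77.7% ± 17.3 in polysomal RNA (log2 changes 0.47 and 0.49, adjusted p 8.17e-06 and 2.51e-05). Its inner site at chr4:63357874-63357897, within the gene interval, held 32.3%, 12.5% and 14.96% in the same order and 20.7% in Bmal1-/- RNA. The inner site of Apcs, chr1:172894528-172894605 on the minus strand, rose from 4.06% ± 2.10 to 10.6% ± 10.1 in nuclear RNA (log2 change 1.26, SE 0.24, adjusted p 3.17e-06). The inner site of Saa4, chr7:46729365-46729572, held 9.44% ± 1.91 in total RNA, 10.96% ± 3.33 in nuclear (adjusted p 0.00924) and 14.1% ± 8.90 in polysomal RNA (adjusted p 3.25e-04). Its call was lost in nuclear RNA without replicate 3 (adjusted p 0.0523) or 6 (0.0528) and in polysomal RNA without replicate 1 (0.0712). Of the member sites tested, 8 of 9 differed in nuclear RNA, against 78.6% of all sites tested, and 7 of 7 in polysomal RNA, against 70.5%. Between genotypes 0 of 7 differed by edgeR, with 0 at an unadjusted p under 0.05, against 9.03% of all sites. Within replicates 1 to 3, however, 2 of 11 sites tested were called, both of Orm2 (the inner one at chr4:63365690-63365771, log2 change -1.33, adjusted p 0.00268). Within 4 to 6 there were 3 of 7, the inner sites of Saa4 (-0.20, adjusted p 0.0401) and Orm3 (-0.99, adjusted p 0.0416) and the middle site of Orm3 (0.99, adjusted p 0.0111). The 9.03% belongs to the pooled fit, so the counts within the sets have no share of all sites beside them. The fit within replicates 1 to 3 called 762 sites in all. Site counts of the low genes Saa3 and Orm3 are small, with 128 and 93.7 site counts per wild-type total library, 51.4 and 52.1 per nuclear and 59.1 and 57.6 per polysomal library, which limits the precision of their shares.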

How the data were processed

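The authors deposited raw counts per gene and per polyadenylation site, 1 column per library with no pooling. Libraries were made with the QuantSeq 3′ kit from 2 µg of RNA, per the labels' protocols. STAR 2.4.2a, HOMER and edgeR and the builds mm10 and GRCm38.p5 are named, without their roles, per the submitters' processing notes. The counting tool and the handling of reads that map to several places are not given in the sources used here. The site positions (chromosome, start, end and strand) are those in the lists the authors deposited. All 144 columns were matched to samples by title. Of 360 pairs of libraries within a group, 0 were identical (smallest chi-square per degree of freedom 4.03).

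From these counts, levels were computed as CPM of the library total, with SD. A value of 0 in a library allows up to 3 counts, and that limit covers counting error only: Orm3 had 0 counts in 1 polysomal library, which allows up to 0.738 CPM. Tests used edgeR 4.0.16 (robust quasi-likelihood, TMM scaling, genes averaging 10 or more counts per library, Benjamini-Hochberg, threshold 0.05) in R 4.3.3, over the mean of the 6 time means for levels and a cosine and sine of 24 h for rhythm, with their interaction with series for rhythm differences. Site usage was tested on sites with at least 5% of a gene's site counts, for genes averaging 50 or more site counts, with the log gene total plus 0.5 as offset. Sites were given to genes within 1000 bp of the gene end by the RefSeq table (26466 of 29199 sites, 9022 genes). Relations used log2(CPM + 0.5) about time means with 100000 permutations within times, 2-sided. Promoters and gene positions came from RefSeq (GRCm38.p6). The scripts were tested on simulated data.

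The 10 genes, all named in every comparison, and the lists and markers were chosen with earlier results of these data known. From each list at most 6 examples with the largest called change are named, and for Saa1, Orm2, Hp and Apcs the 5 genes most alike. Fmn2, Pcp4l1, Crp, Ifi202b and Xist were named after their values were seen. Alternatives were RLE factors, no filter on low counts, DESeq2 1.42.0, replicate blocks, a joint fit of the 4 series, each set of numbers and each replicate left out. The following were added after the data were seen: replicates 1 to 2, replicates 3 to 6, without the highest Saa1 library of each series and without the libraries with Xist above 100 CPM.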

Additional observations from a re-analysis of the deposited data

Results flagged for a closer look

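Of 240 groups of 6 libraries (10 genes, 4 series and 6 times), 14 held a library whose gap to its nearest neighbour was more than 0.625 of the group's whole range on the log2(CPM + 0.5) scale, 9 at the high end and 5 at the low end. Chance flags about 1 in 20 groups, which is 12 of 240. On the CPM scale itself 39 groups held such a library, and the values below are in CPM for those found on the log2 scale.

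In the Saa genes of Bmal1-/- RNA, Saa2 had 429 CPM at ZT2 in replicate 4 (next 20.6 CPM), Saa1 had 68.6 CPM at ZT22 in replicate 2 (next 13.2 CPM) and Saa3 had 9.35 CPM at ZT10 in replicate 1 (next 4.57 CPM). In polysomal RNA, replicate 6 at ZT2 was apart in 3 genes at once: Saa1 at 725 CPM (next 113), Saa2 at 275 CPM (next 26.2) and Orm2 at 276 CPM (next 89.8). At ZT22 of polysomal RNA Saa2 was low in replicate 3 with 4.95 CPM (next 20.4), and Saa4 was high in replicate 2 with 176 CPM (next 83.4). In nuclear RNA Saa2 was low at ZT10 in replicate 4 with 1.27 CPM (next 19.0), and Saa3 at ZT18 in replicate 3 with 2.83 CPM (next 10.1). In wild-type total RNA 2 libraries numbered 4 were low: Saa4 at ZT14 with 59.6 CPM (next 324) and Hp at ZT2 with 281 CPM (next 757). In Bmal1-/- RNA Orm3 had 32.6 CPM at ZT10 in replicate 3 (next 10.2), and Hp had 1821 CPM at ZT14 in replicate 1 (next 957). The low Saa4 library at ZT14 is at the time of the fitted peak of that gene, and without replicate 4 its rhythm in wild-type total RNA was called with an adjusted p of 0.00537 by edgeR, against 0.0185 with it.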

How the results depend on the processing

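For Saa1 to Saa4, Orm1 and Apcs the direction and the call in Bmal1-/- total RNA held in 17 of 17 alternatives, and for Hpx, Hp and Apcs in nuclear RNA in 16 of 16. Values for single genes, sites and relations stayed on the same side in 1840 cases, lost the threshold in 86, passed it anew in 28 and changed sign in 30. The cause of these changes was not tested.

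Orm3 in Bmal1-/- RNA had 0.045 with a replicate block, 1.15 within replicates 4 to 6, 0.29 within 3 to 6 and -0.42 to 0.13 with 1 replicate left out. With 1 replicate left out, nuclear RNA gave -0.53 to 0.062 for Saa1 and -0.56 to 0.11 for Saa2, and polysomal RNA gave -1.15 to 0.089 for Saa1, -1.35 to 0.015 for Saa2 and -0.96 to 0.10 for Orm3. Within polysomal replicates 4 to 6 Saa1 had 1.04, Saa2 1.43 and Orm3 1.38, and within 1 to 3 Hp had -0.23. Of the 10 genes, those called in nuclear RNA numbered 9 with a replicate block by number and time (among them Saa1 at -0.39, Saa2 at -0.34 and Orm3 at 0.21, adjusted p 0.00236, 0.0180 and 0.0347), 3 within replicates 1 to 3, 3 within 4 to 6 and 3 to 5 with 1 replicate left out. The share of all genes called in these fits is not given.

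Same-numbered libraries of nuclear and total RNA deviated together (mean r over genes 0.284, above 0.1 in 34 of 36 pairs, and 30 of 36 nuclear libraries went best with their own number). For polysomal RNA the mean r was -0.109, and for Bmal1-/- RNA 0.061. Since the labels do not tie numbers to animals and 2 nuclear pairs were lower, the numbers were not taken as pairs. The replicate block called the rhythm difference of Saa4 between genotypes (adjusted p 0.0426 by edgeR), and the block by number and time lost Hp in polysomal RNA (adjusted p 0.0595).

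Rhythmic genes in wild-type total RNA numbered 1019 in the joint fit, 1342 within replicates 1 to 3, 622 within 4 to 6 and 1519 to 2236 with 1 replicate left out, and of the 10 genes 0 within 4 to 6 and 0 to 1 with 1 left out. Nuclear RNA gave 174 and 237 within the sets and 359 to 583 with 1 left out. Polysomal RNA gave 2679 in the joint fit, 2107 with no filter, 1506 with the replicate block, 115 within 1 to 3 and 425 to 700 with 1 left out, and 1 of the 10 genes in the joint fit and by DESeq2. Bmal1-/- RNA gave 6 in the joint fit, 21 with no filter, 0 to 2 with 1 left out and 0 with the replicate block, within each set, by DESeq2 and without the libraries with Xist above 100 CPM. Rhythm differences of Bmal1-/- RNA numbered 189 in the joint fit, 236 and 200 within the sets and 288 to 600 with 1 left out, and 1 of the 10 genes with the replicate block and by DESeq2. Those of nuclear RNA numbered 5 with no filter and 1 with the block by number and time. Those of polysomal RNA numbered 30 in the joint fit, 424 with no filter, 2 with the replicate block, 2 within replicates 4 to 6, 15 by DESeq2 and 0 to 2 with 1 left out.

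Site usage in Bmal1-/- RNA gave 1979 sites with the replicate block, 762 within replicates 1 to 3 and 674 to 1313 with 1 left out, with 2 member sites called within 1 to 3 and 3 within 4 to 6. There the proximal site of Saa3 had -0.0066 within 1 to 3 and -0.0062 to 0.025 with 1 left out, the sites of Saa4 -0.00352 and 0.019 within 1 to 3, and those of Orm3 0.10 (inner) and -0.37 (middle) within 1 to 3, the middle one -0.0063 to 0.35 with 1 left out. In nuclear RNA 5 member sites were called at a share of 10%, 3 at 200 site counts (3748 of all sites), 3 within 4 to 6 and 5 to 10 with 1 left out. In polysomal RNA 2 were called at 200 site counts (3837 of all sites). Same-number relations with nuclear RNA that passed numbered 9 and 6 within the sets. With polysomal RNA r was 0.000631 for Saa1 within 1 to 3 and 0.00948 for Orm3 and 0.080 for Apcs within 4 to 6. In Bmal1-/- RNA Saa1 had an r of -0.18 with Orm1 and -0.11 with Orm3 within 1 to 3 and -0.052 with Hpx within 4 to 6. Depth limits Saa3 and Orm3, whose lowest libraries had 4 and 0 counts.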
